A study of Mus musculus with 12 samples.

Results

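The 31 genes described here are photoreceptor and pigment epithelium genes of the eye, measured by poly(A) RNA-seq in 12 mouse optic nerve libraries. They were chosen by name, as rows of a count table of 35275 genes, and every one was found. Their classes are 12 rod phototransduction and outer segment genes, 2 photoreceptor transcription factors, 2 cone opsins, 1 channel of ON bipolar cells and melanocytes, 6 pigment epithelium genes and 8 melanosome genes. The first 3 classes together are called the 16 photoreceptor genes below, and the last 2 the 14 pigment genes. The libraries came from NF1 mice given carboplatin (3 libraries), selumetinib (3) or PBS (6). Carboplatin is a platinum compound that crosslinks DNA, selumetinib inhibits the kinases MEK1 and MEK2, and PBS is phosphate-buffered saline, the control. The series is titled as a mouse model of neurofibromatosis type 1, and all groups, PBS included, carry the NF1 label. The alleles, strain, age, dose and time of collection are not given in the labels, and the cell type label reads "Nerve cells".

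Rods and cones are the light-sensing cells of the outer retina. Light activates an opsin, the opsin activates the G protein transducin, transducin releases the phosphodiesterase PDE6 from its inhibitory subunit, and the fall in cyclic GMP closes a cation channel in the outer segment. Behind the photoreceptors lies the retinal pigment epithelium, a single layer of pigmented cells that recycles the visual chromophore, takes up shed outer segments and holds melanin in melanosomes. Melanosome enzymes are also made by melanocytes of the choroid and of other tissues. The optic nerve itself holds the axons of retinal ganglion cells with oligodendrocytes, astrocytes and microglia, and no photoreceptor or pigment epithelium cell body is known as a normal part of it.

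Of the 31 genes, 23 had an entry among the RefSeq promoter sequences used here (build GRCm38.p6). Windows of 6 genes before the annotated start are printed as examples, and each holds a CRX and OTX2 core, an MITF E-box or both. Other genes with such a motif, among them Crx, Mfrp and Oca2, are not printed. Genes without a motif in the window, among them Pdc and Rom1, are not printed either. Capitals mark TAATCC or its reverse complement GGATTA, the core bound by the photoreceptor and pigment epithelium homeobox factors CRX and OTX2, and CATGTG or its reverse complement CACATG, the E-box within the M-box bound by MITF. The motifs do not overlap each other in these windows. Sag and Guca1a are photoreceptor genes, Rpe65 is a pigment epithelium gene, Tyr and Dct are melanosome genes, and Trpm1 is the channel gene. Coordinates are those of the bases printed.
Sag: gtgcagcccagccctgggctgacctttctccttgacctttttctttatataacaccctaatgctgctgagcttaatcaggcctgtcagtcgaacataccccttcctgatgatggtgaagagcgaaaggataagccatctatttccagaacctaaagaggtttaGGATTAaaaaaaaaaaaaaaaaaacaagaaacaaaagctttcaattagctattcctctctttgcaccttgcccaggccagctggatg
Guca1a: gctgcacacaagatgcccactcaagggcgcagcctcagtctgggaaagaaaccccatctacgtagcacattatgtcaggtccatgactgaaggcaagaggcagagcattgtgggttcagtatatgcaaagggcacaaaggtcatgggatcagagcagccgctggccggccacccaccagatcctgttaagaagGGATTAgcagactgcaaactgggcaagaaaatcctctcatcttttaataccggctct
Rpe65: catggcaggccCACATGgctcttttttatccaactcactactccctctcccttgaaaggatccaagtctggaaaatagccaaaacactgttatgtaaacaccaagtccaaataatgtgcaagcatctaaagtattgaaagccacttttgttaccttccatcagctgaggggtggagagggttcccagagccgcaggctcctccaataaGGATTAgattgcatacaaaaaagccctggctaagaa
Tyr: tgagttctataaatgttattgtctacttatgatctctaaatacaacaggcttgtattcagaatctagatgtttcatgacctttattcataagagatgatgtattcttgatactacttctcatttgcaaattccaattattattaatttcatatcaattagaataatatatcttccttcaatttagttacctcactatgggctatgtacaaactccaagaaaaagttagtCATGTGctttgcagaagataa
Dct: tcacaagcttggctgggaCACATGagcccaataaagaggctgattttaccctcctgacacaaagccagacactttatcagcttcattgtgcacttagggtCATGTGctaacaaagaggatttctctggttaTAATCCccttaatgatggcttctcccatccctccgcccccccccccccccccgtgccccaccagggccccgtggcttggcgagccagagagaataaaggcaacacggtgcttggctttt
Trpm1: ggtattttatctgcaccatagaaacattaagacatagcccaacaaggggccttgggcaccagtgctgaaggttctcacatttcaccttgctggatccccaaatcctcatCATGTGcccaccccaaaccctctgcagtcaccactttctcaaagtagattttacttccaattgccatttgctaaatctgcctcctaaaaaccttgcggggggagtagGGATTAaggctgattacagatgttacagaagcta
The Sag window is chr1:87803430-87803679 on the plus strand, Guca1a is chr17:47400607-47400856 on the minus strand, and Rpe65 is chr3:159598931-159599174 on the plus strand. Tyr is chr7:87493513-87493762 on the minus strand, Dct is chr14:118052247-118052496 on the minus strand, and Trpm1 is chr7:64153585-64153834, its first listed start, on the plus strand. Searched on both strands over the 250 bases before the first listed start, TAATCC was present in 5 of 13 photoreceptor genes and 3 of 9 pigment genes, against 6.3% of 32851 windows of all genes. CATGTG was present in 1 of 13 photoreceptor genes and 6 of 9 pigment genes, against 12.3% of all windows. A match describes letters and is not a bound site.

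Depth was 21793052 to 33375754 counts per library, and 18344 genes passed the filter on low counts. Levels are given as CPM, which is the count after TMM scaling of each library to the same total, and 3 counts in a library, the floor used for values of 0, were worth 0.0907 to 0.140 CPM. The 7 oligodendrocyte markers of optic nerve took 2.34, 3.45 and 2.36% of counts in carboplatin 1, 2 and 3, against 1.196 to 3.84% in selumetinib and 0.913 to 3.92% in PBS. Skeletal muscle genes took 4.29% of counts in PBS 1. Nothing in the labels says whether libraries are separate animals, so that p-values measure the spread between these libraries.

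In carboplatin against PBS, 8 of the 29 genes tested rose (edgeR quasi-likelihood test, Benjamini-Hochberg adjusted p under 0.05 over all genes), and 0 fell. Over all genes tested, 1.57% rose and 0.518% fell. The 8 were Rom1 and Slc24a1 of the photoreceptor genes, Ttr, Otx2, Mfrp, Lrat and Slc16a8 of the pigment epithelium, and Oca2 of the melanosome. At an unadjusted p under 0.05, 27 of 29 were higher in carboplatin and 0 lower, against 8.12% and 8.43% of all genes. DESeq2 called 15 of the 29 higher and 0 lower, beside 8.99% of all genes called in either direction. The log2 fold change was positive in 29 of 29 genes, with a median of 4.94, against a median of -0.11 over all genes tested. In 13 of the 29 genes every carboplatin library lay above every PBS library, against 6.97% of all genes, and in 0 below, against 5.22%. Slc45a2 and Gpr143 did not pass the filter and were not tested. A low gene could pass the filter through the group where it was high, so the counts of genes tested are a description. In bulk tissue, more cells of a type and more RNA per cell cannot be told apart.

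**Figure D1:**
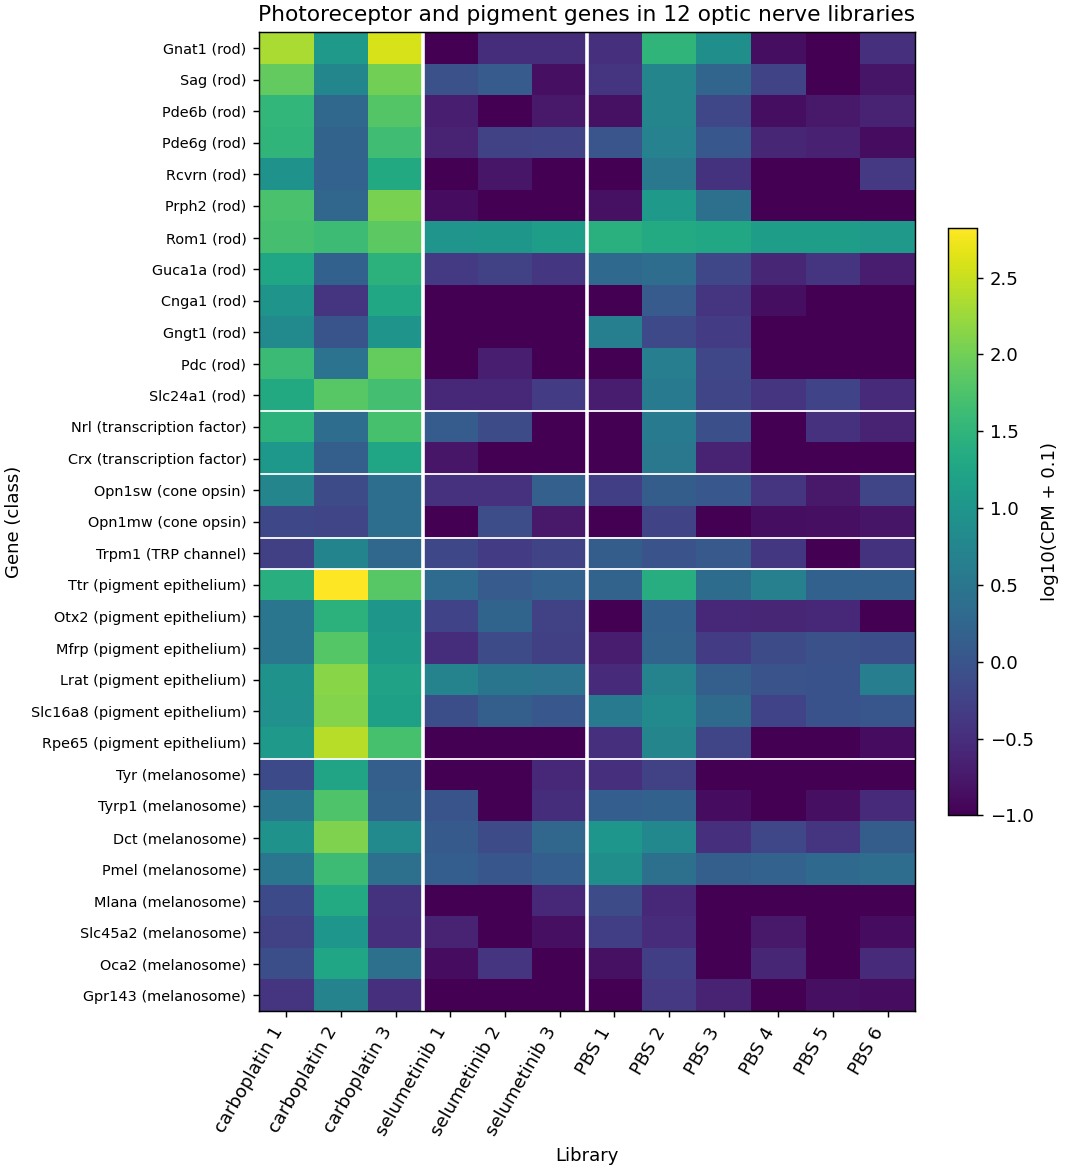
Level of each of the 31 genes (vertical axis, with its class) in each of the 12 libraries (horizontal axis), as log10(CPM + 0.1) by colour. Most rod genes are brightest in carboplatin 1 and 3, pigment epithelium and melanosome genes in carboplatin 2, and PBS 2 is the brightest PBS library for 24 genes.

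Most rod genes were high in carboplatin 1 and 3 and nearer to PBS 2 in carboplatin 2. Gnat1 (chr9:107674474-107679712, mm10), the alpha subunit of rod transducin, was at 216, 11.6 and 386 CPM in carboplatin 1, 2 and 3. It was at 0 to 0.214 CPM in selumetinib and 0 to 31.6 CPM in PBS (median 0.232, n = 6). PBS 2 held the 31.6 CPM and PBS 3 held 7.802 CPM, so that carboplatin 2 lay between these PBS libraries and the groups overlapped. The log2 fold change of Gnat1 over PBS was 4.94 ± 1.71 (SE) and did not pass the test (edgeR adjusted p = 0.176).

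Sag, the arrestin that ends the opsin signal, was at 81.1, 5.54 and 103 CPM in carboplatin 1, 2 and 3. It was at 0.0427 to 1.17 CPM in selumetinib and 0 to 5.36 CPM in PBS (median 0.398, n = 6). All carboplatin libraries were above all PBS libraries, but carboplatin 2 only by 5.54 against 5.36 CPM, and the log2 fold change of 5.59 ± 1.36 (SE) had an edgeR adjusted p of 0.0632. The phosphodiesterase genes followed the same order of libraries. Pde6b, a catalytic subunit, was at 34.3, 1.83 and 62.98 CPM in carboplatin 1, 2 and 3, against 0 to 0.106 CPM in selumetinib and 0.0398 to 5.32 CPM in PBS (median 0.108, n = 6). Pde6g, the inhibitory subunit, was at 31.1, 1.55 and 45.2 CPM in carboplatin 1, 2 and 3, against 0.141 to 0.513 CPM in selumetinib and 0.0332 to 4.86 CPM in PBS (median 0.545, n = 6). For both, carboplatin 2 was below PBS 2, and neither passed the test (log2 fold change 5.0 ± 1.43 (SE) for Pde6b, edgeR adjusted p = 0.104).

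Genes of channel and calcium control were near or at 0 outside a few libraries. Cnga1, a subunit of the rod cyclic GMP-gated channel, was at 9.399, 0.285 and 19.2 CPM in carboplatin 1, 2 and 3, against 0 CPM in every selumetinib library and 0 to 1.17 CPM in PBS (median 0.0199, n = 6). Guca1a, which activates the photoreceptor guanylate cyclases when calcium falls, was at 18.04, 1.43 and 28.3 CPM in carboplatin 1, 2 and 3, against 0.299 to 0.461 CPM in selumetinib and 0.0996 to 2.22 CPM in PBS (median 0.423, n = 6). Its log2 fold change was 4.18 ± 0.98 (SE) with an edgeR adjusted p of 0.0555. Rcvrn, the calcium sensor recoverin, was at 8.67, 1.51 and 20.99 CPM in carboplatin 1, 2 and 3, against 0 to 0.07096 CPM in selumetinib and 0 to 3.27 CPM in PBS (median 0.131, n = 6). In each of these genes carboplatin 1 and 3 were above every PBS library and carboplatin 2 was not. Gngt1, the gamma subunit of rod transducin, was at 6.62, 0.897 and 9.51 CPM in carboplatin 1, 2 and 3, against 0 CPM in every selumetinib library and 0 to 4.37 CPM in PBS (median 0.1803, n = 6). Its highest PBS library was PBS 1, where muscle and surface epithelium genes were also highest, and the part of those tissues in that value was not tested. Pdc, phosducin, which binds the beta and gamma subunits of transducin, was at 40.3, 2.73 and 84.3 CPM in carboplatin 1, 2 and 3, against 0 to 0.106 CPM in selumetinib and 0 to 4.15 CPM in PBS (median 0, n = 6).

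Prph2 and Rom1 encode the tetraspanins of the disc rim, and they behaved differently. Prph2 was at 53.8, 1.71 and 114 CPM in carboplatin 1, 2 and 3, against 0 to 0.0354 CPM in selumetinib and 0 to 11.6 CPM in PBS (median 0.0233, n = 6). Carboplatin 2 was below PBS 2 for Prph2, and the log2 fold change of 4.58 ± 1.73 (SE) had an edgeR adjusted p of 0.216. Rom1 (chr19:8927391-8929356) was at 48.7, 42.1 and 71.4 CPM in carboplatin 1, 2 and 3, against 9.65, 10.5 and 13.3 CPM in selumetinib 1, 2 and 3 and 11.1 to 26.7 CPM in PBS (median 16.4, n = 6). It was present in every library, the carboplatin libraries were close to each other, and all lay above all PBS libraries. Rom1 rose by a log2 fold change of 1.62 ± 0.27 (SE) (edgeR adjusted p = 0.0144). Without carboplatin 1 the edgeR adjusted p was 0.0508, and without carboplatin 3 it was 0.089.

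Slc24a1 (chr9:64922861-64951607), the rod sodium, calcium and potassium exchanger, was the other photoreceptor gene that rose. It was at 20.8, 68 and 48.6 CPM in carboplatin 1, 2 and 3, against 0.177 to 0.385 CPM in selumetinib and 0.09304 to 3.52 CPM in PBS (median 0.387, n = 6). Every carboplatin library was above every PBS library, and the log2 fold change was 5.75 ± 0.92 (SE) (edgeR adjusted p = 0.0117, and 0.0506 without carboplatin 3). Slc24a1 was the only one of the 12 rod genes with its highest value in carboplatin 2, the library where the pigment genes were highest. Its level in carboplatin 2 was 3.28 times that in carboplatin 1, whereas the ratio of Rom1 was 0.863 and those of the other 10 rod genes were at most 0.174.

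The photoreceptor transcription factors had the rod order of libraries. Nrl, which sets rod identity, was at 29.6, 2.201 and 50.9 CPM in carboplatin 1, 2 and 3, against 0 to 1.202 CPM in selumetinib and 0 to 3.56 CPM in PBS (median 0.190, n = 6). Crx, which acts in rods and cones, was at 10.9, 1.35 and 18.3 CPM in carboplatin 1, 2 and 3, against 0 to 0.0707 CPM in selumetinib and 0 to 3.35 CPM in PBS (median 0, n = 6). For both, carboplatin 2 was below PBS 2, and neither passed the test (log2 fold changes 5.13 ± 1.47 (SE) and 4.14 ± 1.62 (SE), edgeR adjusted p = 0.105 for Nrl and 0.234 for Crx).

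Cone opsins were low, and the ratio of the pair was not the same in each carboplatin library. Opn1sw, the short-wavelength opsin, was at 5.47, 0.652 and 2.27 CPM in carboplatin 1, 2 and 3, against 0.248 to 1.41 CPM in selumetinib and 0.0824 to 1.26 CPM in PBS (median 0.475, n = 6). Opn1mw, the medium-wavelength opsin, was at 0.574, 0.530 and 2.27 CPM in carboplatin 1, 2 and 3, against 0 to 0.7096 CPM in selumetinib and 0 to 0.502 CPM in PBS (median 0.0405, n = 6). Opn1sw was the only 1 of the 31 genes with its highest value of all libraries in carboplatin 1. Opn1sw gave 181 of 200 cone opsin counts in carboplatin 1 (90.5%, 95% Clopper-Pearson interval 85.6 to 94.2%), 16 of 29 in carboplatin 2 (55.2%, 35.7 to 73.6%) and 68 of 136 in carboplatin 3 (50%, 41.3 to 58.7%). In PBS 2 it gave 30 of 42 (71.4%, 55.4 to 84.3%). In the selumetinib libraries, with 7 to 35 cone opsin counts each, its share was 25.9 to 100%. In the other PBS libraries, with 3 to 30 counts each, it was 66.7 to 100%. High shares thus also occurred outside carboplatin, as in selumetinib 3 (33 of 35) and PBS 3 (30 of 30). These intervals cover counting error only, and PCR copies are not independent molecules. The intervals of carboplatin 1 and 3 do not overlap. In mouse retina short-wavelength cones are densest ventrally and medium-wavelength opsin is highest dorsally. Any part of retinal region in these shares was not tested. Of the exon length of Opn1sw, 15.5% overlaps Calu on the opposite strand, and the sources used here do not give the strand setting of the counting.

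The pigment epithelium genes were highest in carboplatin 2, far above the rest. Ttr (chr18:20665280-20674321), transthyretin, which carries retinol-binding protein and thyroxine and is made by the pigment epithelium and the choroid plexus, was at 25.4, 665 and 66.5 CPM in carboplatin 1, 2 and 3. It was at 2.09, 1.14 and 1.496 CPM in selumetinib 1, 2 and 3 and 1.43 to 24.3 CPM in PBS (median 1.83, n = 6). All carboplatin libraries were above all PBS libraries, with carboplatin 1 at 25.4 and PBS 2 at 24.3 CPM, and Ttr rose by a log2 fold change of 5.42 ± 1.16 (SE) (edgeR adjusted p = 0.0383). Rpe65 (chr3:159599175-159625321), the isomerohydrolase of the visual cycle, was at 11.4, 261 and 51.5 CPM in carboplatin 1, 2 and 3, against 0 CPM in every selumetinib library and 0 to 5.44 CPM in PBS (median 0.133, n = 6). Its log2 fold change of 6.71 ± 1.66 (SE) was the highest of the 29 genes tested, its groups did not overlap, and it did not pass the test (edgeR adjusted p = 0.0795). Lrat, which esterifies retinol for that cycle, was at 9.22, 141 and 15.8 CPM in carboplatin 1, 2 and 3, against 2.78 to 4.95 CPM in selumetinib and 0.186 to 4.94 CPM in PBS (median 1.09, n = 6). Lrat rose by 4.74 ± 0.98 (SE) on the log2 scale (edgeR adjusted p = 0.0334).

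Slc16a8, the lactate transporter MCT3 of the basolateral pigment epithelium, was at 8.58, 130.2 and 14.6 CPM in carboplatin 1, 2 and 3, against 0.743 to 1.35 CPM in selumetinib and 0.478 to 6.45 CPM in PBS (median 1.498, n = 6). Its log2 fold change was 4.43 ± 0.91 (SE) (edgeR adjusted p = 0.0338). Mfrp, a membrane protein whose loss causes retinal degeneration in mice, was at 3.11, 65.96 and 11.9 CPM in carboplatin 1, 2 and 3, against 0.212 to 0.674 CPM in selumetinib and 0.09304 to 1.55 CPM in PBS (median 0.704, n = 6). Its log2 fold change was 5.26 ± 0.87 (SE) (edgeR adjusted p = 0.0139). Mfrp shares 36.7% of its exon length with C1qtnf5 on the same strand, and C1qtnf5 was listed at 0 in all 12 libraries. Otx2, the homeobox factor of pigment epithelium and photoreceptors, was at 3.05, 28.4 and 10.4 CPM in carboplatin 1, 2 and 3, against 0.4702 to 1.63 CPM in selumetinib and 0 to 1.47 CPM in PBS (median 0.162, n = 6), with a log2 fold change of 5.41 ± 1.2 (SE) (edgeR adjusted p = 0.0447). In each of the 6 genes carboplatin 2 was the highest of 12 libraries, carboplatin 3 the next and carboplatin 1 the third. Without carboplatin 2, the pigment epithelium calls of Ttr, Otx2, Mfrp, Lrat and Slc16a8 were lost (edgeR adjusted p = 0.239, 0.172, 0.0683, 0.226 and 0.238), with log2 fold changes of 2.97, 4.37, 3.42, 2.60 and 2.29. The calls of all but Mfrp were also lost without any 1 of selumetinib 1, selumetinib 2, PBS 3, PBS 4, PBS 5, PBS 6 or carboplatin 3, and those of Ttr and Otx2 without carboplatin 1.

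Melanosome genes were highest in carboplatin 2. Tyr (chr7:87424771-87493512), tyrosinase, the rate-limiting enzyme of melanin synthesis, was at 0.635, 17.2 and 1.34 CPM in carboplatin 1, 2 and 3, against 0 to 0.171 CPM in selumetinib and 0 to 0.461 CPM in PBS (median 0, n = 6). Tyrp1, which acts later in the synthesis of eumelanin, was at 3.05, 58.2 and 1.57 CPM in carboplatin 1, 2 and 3, against 0 to 0.884 CPM in selumetinib and 0 to 1.47 CPM in PBS (median 0.1202, n = 6). In both genes the carboplatin libraries lay above all PBS libraries, and neither passed the test (log2 fold change 5.8 ± 1.49 (SE) for Tyr, edgeR adjusted p = 0.0752). Dct, dopachrome tautomerase, was at 8.704, 121 and 6.34 CPM in carboplatin 1, 2 and 3, against 0.674 to 1.75 CPM in selumetinib and 0.229 to 10.05 CPM in PBS (median 0.909, n = 6). Pmel, which forms the fibrils on which melanin is laid down, was at 3.11, 40.97 and 2.44 CPM in carboplatin 1, 2 and 3, against 0.958 to 1.31 CPM in selumetinib and 1.34 to 7.95 CPM in PBS (median 2.06, n = 6). PBS 1 held the highest PBS values of Dct and Pmel and lay above carboplatin 1 and 3 for both. Mlana, a melanosome maturation protein, was at 0.635, 21.7 and 0.267 CPM in carboplatin 1, 2 and 3, against 0 to 0.171 CPM in selumetinib and 0 to 0.651 CPM in PBS (median 0, n = 6).

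Oca2, a melanosomal membrane protein that affects its pH, was the melanosome gene that rose, with 0.725, 17.3 and 2.503 CPM in carboplatin 1, 2 and 3, against 0 to 0.284 CPM in selumetinib and 0 to 0.419 CPM in PBS (median 0.103, n = 6). Its log2 fold change was 5.6 ± 1.25 (SE) (edgeR adjusted p = 0.0451, and 0.266 without carboplatin 2). The call was lost in 9 of the 12 fits that left out 1 library, those without carboplatin 1, 2 or 3, selumetinib 1 or 2, or PBS 3, 4, 5 or 6. The untested Slc45a2, a melanosomal transporter, was at 0.453, 10.2 and 0.234 CPM in carboplatin 1, 2 and 3, against 0 to 0.141 CPM in selumetinib and 0 to 0.419 CPM in PBS (median 0.0564, n = 6). Gpr143, the melanosomal receptor mutated in ocular albinism, was at 0.272, 4.97 and 0.234 CPM in carboplatin 1, 2 and 3, against 0 CPM in every selumetinib library and 0 to 0.335 CPM in PBS (median 0.0372, n = 6). Carboplatin 2 was the highest of the 12 libraries for all 8 melanosome genes.

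Trpm1 is the transduction channel of ON bipolar cells and is also made by melanocytes and pigment epithelium. It was at 0.423, 5.18 and 1.802 CPM in carboplatin 1, 2 and 3, against 0.355 to 0.566 CPM in selumetinib and 0 to 1.26 CPM in PBS (median 0.578, n = 6). Carboplatin 2 was again highest, and the log2 fold change of 1.98 ± 0.92 (SE) did not pass the test (edgeR adjusted p = 0.313). Grm6, the defining receptor of ON bipolar cells, had 1, 0 and 1 counts in carboplatin 1, 2 and 3 and 0 counts in every other library.

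Summed by class, carboplatin 2 had the fewest photoreceptor counts and the most pigment counts of the carboplatin libraries. The 16 photoreceptor genes took 0.06096, 0.0126 and 0.0992% of counts in carboplatin 1, 2 and 3, against 0.00142 to 0.00175% in selumetinib and 0.00134 to 0.01098% in PBS. The 14 pigment genes took 0.00777, 0.139 and 0.0172% in carboplatin 1, 2 and 3, against 0.00105 to 0.00133% in selumetinib and 0.000651 to 0.00589% in PBS. The lowest carboplatin library was above the highest PBS library in both sums, and PBS 2 was that highest library each time. For the photoreceptor sum this order rested on Slc24a1 and Rom1, which gave 2700 of 3530 photoreceptor counts in carboplatin 2. The other 14 photoreceptor genes took 0.0541, 0.00297 and 0.0881% of counts in carboplatin 1, 2 and 3, against 0.00834% in PBS 2, so that carboplatin 2 was then below PBS 2. Of the counts in both classes, photoreceptor genes gave 88.7% in carboplatin 1 (95% Clopper-Pearson interval 88.3 to 89.1%), 8.33% in carboplatin 2 (8.07 to 8.60%) and 85.2% in carboplatin 3 (84.8 to 85.6%). In the selumetinib libraries that share was 51.6 to 62.5%, and in PBS it was 53.2 to 81.9%. The intervals cover counting error within a library only, and not the spread between libraries or genes. Rom1, present in every library, gave 70.9 to 81.4% of photoreceptor counts in selumetinib and 85.8 to 90.7% in PBS 4 to 6. Without Rom1 the photoreceptor share of class counts was 87.8, 6.04 and 84.3% in carboplatin 1, 2 and 3, against 20.7 to 30.7% in selumetinib and 13.9 to 68.4% in PBS.

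**Figure D2:**
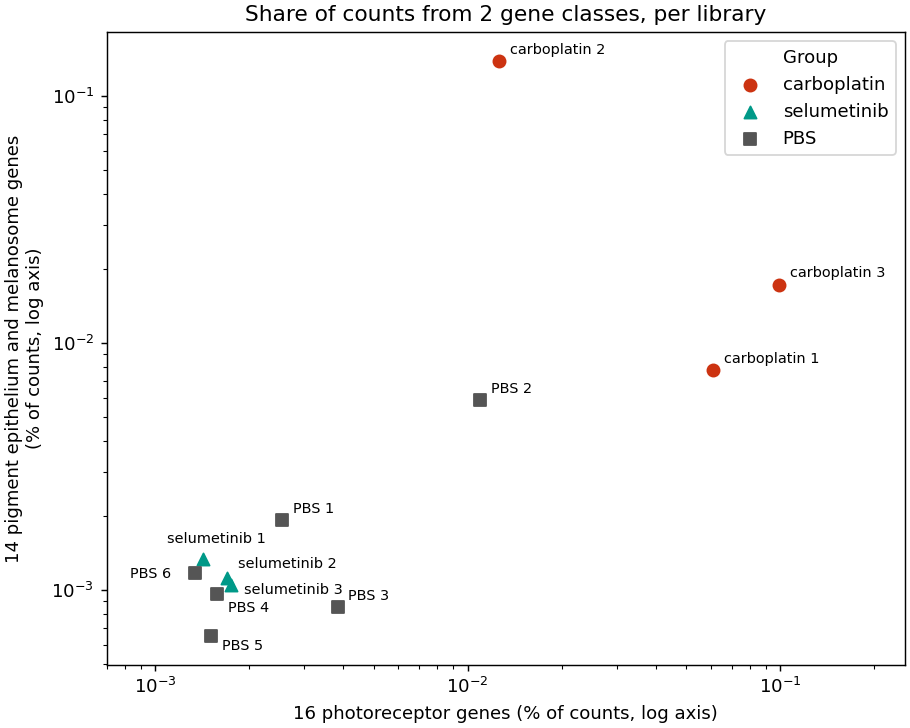
Each point is 1 library, placed by its percent of counts in the 16 photoreceptor genes (horizontal log axis) and in the 14 pigment epithelium and melanosome genes (vertical log axis), with groups by colour and shape. Carboplatin 1 and 3 lie to the right with 88.7% and 85.2% of class counts in photoreceptor genes, carboplatin 2 lies at the top with 8.33%, and PBS 2 is the PBS library nearest to them.

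Gene by gene, 14 of the 31 genes had their highest value of the 12 libraries in carboplatin 3, 16 in carboplatin 2 and 1 in carboplatin 1. Over all genes tested, 5.64% were highest in carboplatin 3, 9.10% in carboplatin 2 and 5.54% in carboplatin 1. Carboplatin 2 over carboplatin 1 gave ratios of 0.0304 to 3.28 (median 0.06804) for the 12 rod genes, 9.31 to 26.1 (median 18.2) for the 6 pigment epithelium genes and 13.2 to 34.2 (median 20.8) for the 8 melanosome genes. Against carboplatin 3 the same ratios were 0.0149 to 1.399 (median 0.0424), 2.74 to 10.01 (median 7.23) and 6.91 to 81.2 (median 20.2), in the same order of classes. Carboplatin 3 over carboplatin 1 was 1.28 to 2.42 (median 1.82) for the rod genes and 1.699 to 4.53 (median 3.01) for the pigment epithelium genes, so that carboplatin 3 was the higher of these libraries for both. For the melanosome genes it was 0.421 to 3.45 (median 0.756). Melanosome genes gave 22.4% of pigment counts in carboplatin 1, 18.4% in carboplatin 2 and 8.04% in carboplatin 3. These ratios compare single libraries and carry no replicate error.

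**Figure D3:**
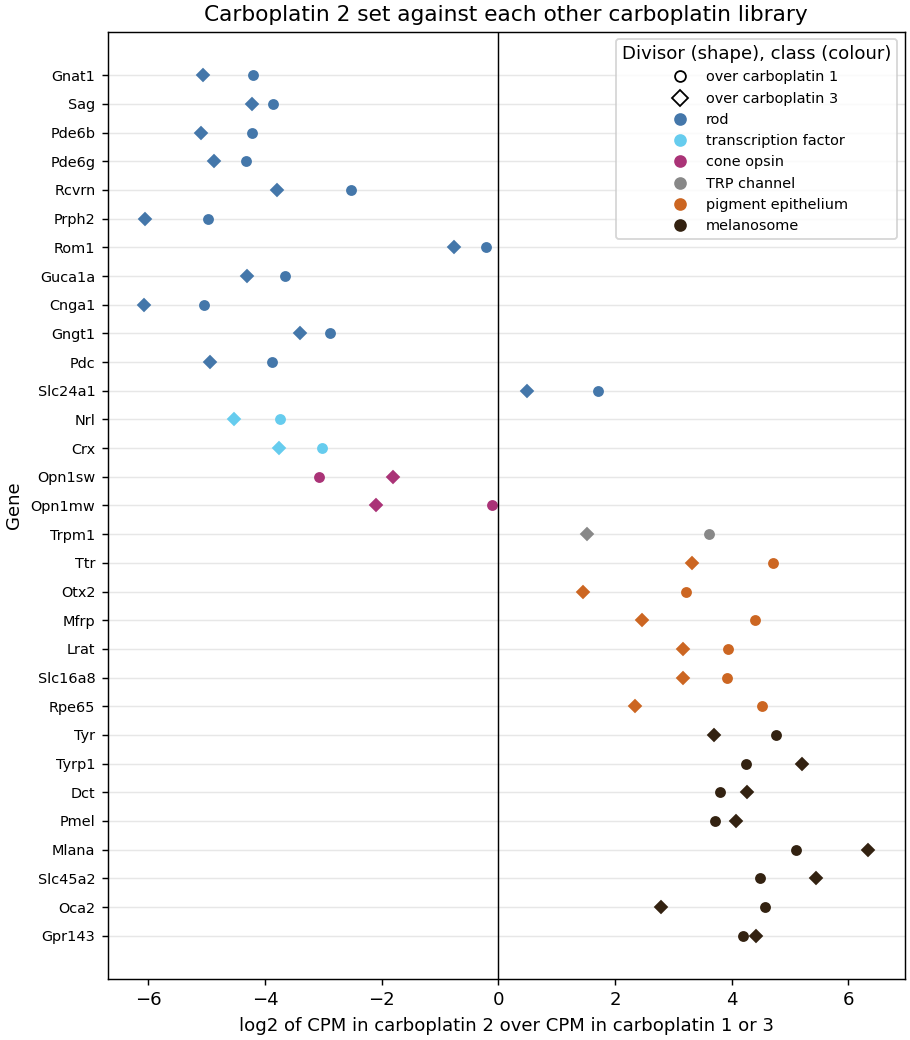
Log2 ratio of CPM in carboplatin 2 over carboplatin 1 (circles) and over carboplatin 3 (diamonds) for each of the 31 genes, coloured by class, with a line at no difference. All 14 pigment epithelium and melanosome genes, Trpm1 and Slc24a1 lie right of the line, and the other 15 photoreceptor genes lie left of it.

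Levels per kilobase of exon (RPKM) show how abundant the transcripts were relative to each other. Gnat1 had 71.1, 3.84 and 128 RPKM in carboplatin 1, 2 and 3, and Rom1 had 32.1, 27.7 and 47.1 RPKM. In carboplatin 2, Ttr reached 561 RPKM and Rpe65 135 RPKM, against 3.84 RPKM of Gnat1. In carboplatin 3 the level of Gnat1, 128 RPKM, was above those of Ttr, 56.03 RPKM, and Rpe65, 26.6 RPKM. The order of Gnat1 against Ttr and Rpe65 was thus exchanged between these libraries of the same group.

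A wider list of 27 other rod genes was also highest in carboplatin 3 among the carboplatin libraries. All 27 were tested, and 4 rose in carboplatin against PBS and 0 fell, against 1.57% and 0.518% of all genes. The log2 fold change was positive in 27, with a median of 3.74. Against selumetinib it was positive in 25 of 27. Cngb1 had 490, 696 and 38 counts in selumetinib 1, 2 and 3, against 422, 35 and 732 in carboplatin 1, 2 and 3. Rgs9 had 938, 904 and 200 counts in selumetinib 1, 2 and 3, against 492, 374 and 1023 in carboplatin 1, 2 and 3. Among those that rose were Abca4, a retinoid flippase of the disc rim, by 1.7 ± 0.29 (SE), Tulp1, a photoreceptor trafficking protein, by 4.07 ± 0.9 (SE), and Gucy2f, a photoreceptor guanylate cyclase, by 2.11 ± 0.45 (SE) (edgeR adjusted p = 0.0157, 0.0447 and 0.0366). Abca4 was at 41.4, 39.6 and 67.4 CPM in carboplatin 1, 2 and 3, so that carboplatin 2 was near carboplatin 1. Rbp3, the retinoid-binding protein between photoreceptors and pigment epithelium, was at 85.7, 3.098 and 193 CPM in carboplatin 1, 2 and 3, against 0 to 0.177 CPM in selumetinib and 0 to 9.59 CPM in PBS (log2 fold change 5.61 ± 1.74 (SE), edgeR adjusted p = 0.13). Unc119, a carrier of lipid-modified proteins made in many tissues, was at 42.7, 28.6 and 59.7 CPM in carboplatin 1, 2 and 3, against 10 to 30.6 CPM in selumetinib and 8.82 to 28.9 CPM in PBS. Of 8 other cone genes, 6 were tested and 1 rose, the cone transducin gene Gnat2, which was at 2.18, 1.59 and 1.702 CPM in carboplatin 1, 2 and 3, against 0.171 to 0.248 CPM in selumetinib and 0.0465 to 0.796 CPM in PBS, with a log2 fold change of 2.73 ± 0.61 (SE) (edgeR adjusted p = 0.0451). The median over those 6 was 1.32. Arr3, cone arrestin, was at 1.63, 0.245 and 3.57 CPM in carboplatin 1, 2 and 3, against 0 to 0.342 CPM in selumetinib and 0 to 1.05 CPM in PBS (log2 fold change 2.92 ± 1.21 (SE), edgeR adjusted p = 0.258), while Thrb and Gngt2, which other cells also make, had log2 fold changes of -0.28 ± 0.31 (SE) and -0.02 ± 0.28 (SE).

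Of 22 other pigment epithelium genes, all tested, 3 rose and 0 fell, with a median log2 fold change of 0.35. Many of these genes have a level in every library, and 18 of 22 had carboplatin 2 as the highest carboplatin library. For many the margin was small, and the median ratio of carboplatin 2 over carboplatin 1 was 1.52 for the 22 genes. By the same count, carboplatin 2 was highest for 5 of 7 oligodendrocyte and 3 of 5 astrocyte markers, and carboplatin 1 for the other 2 of each. Of all genes tested, 9.10% were highest of the 12 libraries in carboplatin 2, 5.54% in carboplatin 1 and 5.64% in carboplatin 3. The share among the carboplatin libraries alone was not counted over all genes. Rgr, a retinal G protein-coupled receptor that binds all-trans-retinal, was at 32.1, 872 and 95.9 CPM in carboplatin 1, 2 and 3, against 0 CPM in every selumetinib library and 0 to 28.2 CPM in PBS, where PBS 2 was the highest. Rgr did not pass the test and was not among the 3 that rose. Rdh5, the 11-cis-retinol dehydrogenase, was at 12.03, 137 and 17.8 CPM in carboplatin 1, 2 and 3, against 4.91 to 7.98 CPM in selumetinib and 5.72 to 10.1 CPM in PBS, and rose by 2.75 ± 0.6 (SE) on the log2 scale (edgeR adjusted p = 0.0403). Mertk, the receptor by which the epithelium takes up outer segments and which macrophages and glia also use, was at 51.4, 57.6 and 51.9 CPM in carboplatin 1, 2 and 3, against 16.8 to 24.9 CPM in selumetinib and 10.6 to 27.4 CPM in PBS, and rose by 1.43 ± 0.24 (SE) (edgeR adjusted p = 0.0143). Krt18, an epithelial keratin, was at 7.98, 38.4 and 13.1 CPM in carboplatin 1, 2 and 3, against 1.28 to 1.77 CPM in selumetinib and 0.165 to 3.91 CPM in PBS and rose by 3.44 ± 0.68 (SE) (edgeR adjusted p = 0.0278). Among the most abundant genes of the list, Ctsd, Enpp2 and Slc6a20a had log2 fold changes of 0.29 ± 0.19 (SE), -0.86 ± 0.44 (SE) and 0.33 ± 0.54 (SE) and did not pass the test (edgeR adjusted p at least 0.363). Of 10 other melanosome genes, 9 were tested, 0 passed the test in either direction, and the median was 0.31. Among them, Tspan10 was at 0.695, 19.9 and 1.202 CPM in carboplatin 1, 2 and 3, against 0 to 0.342 CPM in selumetinib and 0 to 0.754 CPM in PBS, with a log2 fold change of 5.0 ± 1.5 (SE) (edgeR adjusted p = 0.12). Mitf, the transcription factor of melanocytes and pigment epithelium, was at 14.7, 24.5 and 20.4 CPM in carboplatin 1, 2 and 3, against 9.37 to 21.6 CPM in selumetinib and 15.4 to 25.2 CPM in PBS (log2 fold change -0.07 ± 0.3 (SE)). Gpnmb, Slc24a5, Hps4 and Slc7a11 had log2 fold changes of 0.79 ± 0.37 (SE), 0.31 ± 0.35 (SE), 0.01 ± 0.16 (SE) and -0.88 ± 0.56 (SE).

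In selumetinib against PBS, 0 of the 29 genes passed the test in edgeR, as did 0% of all genes. At an unadjusted p under 0.05 in edgeR, 0 were higher and 3 lower, Prph2, Rom1 and Gngt1, against 14% of all genes higher and 10% lower. DESeq2 called 3 of the 29 lower, Gnat1, Gngt1 and Rpe65, and 0 higher, beside 13.7% of all genes. The log2 fold change was positive in 4 of 29, with a median of -1.22, or -1.21 with the 3 genes at 0 in every selumetinib library set at the bound that 3 counts per library give. By class, 2 of 16 photoreceptor genes were positive (median -2.85) and 2 of 12 pigment genes (median -1.1). This direction turned with PBS 4 to 6 as the only controls, where 10 of 15 photoreceptor genes were positive (median 1.04) and 6 of 11 pigment genes (median 0.43). Without PBS 2 and PBS 3 together, 9 of 15 photoreceptor genes were positive (median 0.22) and 4 of 12 pigment genes (median -0.44), and without PBS 2 alone the medians were -0.56 for photoreceptor and -0.36 for pigment genes. In 1 gene, Pmel, every selumetinib library lay below every PBS library, against 2.7% of all genes, and in 0 genes above, against 3.23%. Pmel was at 1.31, 0.958 and 1.28 CPM in selumetinib 1, 2 and 3, against 1.34 to 7.95 CPM in PBS (median 2.06, n = 6). Cnga1, Gngt1, Rpe65 and Gpr143 had 0 counts in all selumetinib libraries.

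In carboplatin against selumetinib, 17 of 29 genes rose and 0 fell, against 5.65% and 8.35% of all genes. This comparison uses the same carboplatin libraries as the one with PBS. Every carboplatin library lay above every selumetinib library in 26 of 29 genes, against 20.9% of all genes. Exceptions were Opn1sw, Opn1mw and Trpm1. DESeq2 called 23 of the 29 higher and 0 lower, beside 26.9% of all genes called in either direction. The median log2 fold change was 6.12, or 5.93 with the 3 tested genes at 0 in selumetinib set at their bound. Rpe65 was at least 950.0-fold, Cnga1 at least 84.7-fold, Gngt1 at least 49.97-fold and Gpr143 at least 16.1-fold higher in carboplatin, taking 3 counts per selumetinib library as the floor. With 1 carboplatin library left out of the mean, the lowest bounds were 277-fold for Rpe65 and 2.23-fold for Gpr143, both without carboplatin 2, and 42.6-fold for Cnga1 and 33.1-fold for Gngt1, both without carboplatin 3. Slc24a1 was higher by a log2 fold change of 7.53 ± 1.37 (SE) (edgeR adjusted p = 0.0129) and Rom1 by 2.28 ± 0.34 (SE) (edgeR adjusted p = 0.00708). Without selumetinib 1, and likewise without selumetinib 2, Rom1 alone passed the test, and without selumetinib 3 the count was 8. Without carboplatin 1 the count was 5, and without carboplatin 2 or carboplatin 3 it was 3 each, Rom1 and Slc24a1 among them. It was 9 to 11 without any 1 of PBS 3, 4, 5 or 6. Calls over all genes tested moved as well, and were fewest without selumetinib 1 and most without PBS 1.

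Among the PBS libraries, PBS 2 was the highest PBS library for 24 of the 31 genes and PBS 1 for the other 7, which were Rom1, Gngt1, Trpm1, Dct, Pmel, Mlana and Slc45a2. PBS 3 was next to PBS 2 for several rod genes, with 7.802 CPM of Gnat1, 2.49 CPM of Prph2 and 1.67 CPM of Sag, against 0.233, 0.0465 and 0.279 CPM in PBS 1. PBS 4 to 6 held at most 0.232 CPM of Gnat1 and 0.0332 CPM of Rpe65, and 0 CPM of Prph2, Crx, Gngt1, Pdc, Tyr and Mlana. Melanosome genes gave 78.7% of pigment counts in PBS 1, against 20.6% in PBS 2. With PBS 1 to 3 as the only controls, 0 of the genes passed the edgeR test in carboplatin, beside 7 of all genes, and the median log2 fold change was 3.51 for photoreceptor and 4.68 for pigment genes. With PBS 4 to 6 as the only controls, 23 passed, beside 2202 of all genes, and the medians were 7.94 for photoreceptor and 6.07 for pigment genes. The labels do not say how PBS 1 to 3 and PBS 4 to 6 differ.

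Genes of tissues around the nerve moved between libraries as well. The 10 skeletal muscle genes took 0.166, 0.125 and 0.00838% of counts in carboplatin 1, 2 and 3, against 0.00141 to 0.00346% in selumetinib and 0.00123 to 4.29% in PBS. PBS 1, at the top of that range, had the most muscle, and PBS 4 to 6 had at most 0.00126%. Cornea and conjunctiva genes took 0.0215, 0.00424 and 0.0241% in carboplatin 1, 2 and 3, against 0.00102 to 0.00135% in selumetinib and 0.00128 to 0.271% in PBS, where PBS 1 was the highest and PBS 2 held 0.00369%. Of these 7 genes 0 passed the test in carboplatin against PBS, and 5 had carboplatin 3 as the highest carboplatin library. Krt5, a keratin of basal surface epithelium, was at 80.96, 12.3 and 100.2 CPM in carboplatin 1, 2 and 3, against 0 to 0.141 CPM in selumetinib and 0 to 1862 CPM in PBS, while Krt12, the defining keratin of the cornea, was at 0.786, 0.734 and 0.401 CPM in carboplatin 1, 2 and 3, against 0.106 to 0.299 CPM in selumetinib and 0.0664 to 0.744 CPM in PBS. The lens list took 0.00739, 0.00242 and 0.00182% in carboplatin 1, 2 and 3, 0.00183 to 0.00311% in selumetinib, and 0.00215 to 0.0215% in PBS. Within carboplatin, the cornea and conjunctiva sum had the order of the rod genes, with carboplatin 3 the highest and carboplatin 2 the lowest. Muscle was alike in carboplatin 1 and 2 and low in carboplatin 3, and lens was highest in carboplatin 1. Their part in the results was not tested.

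**Figure D4:**
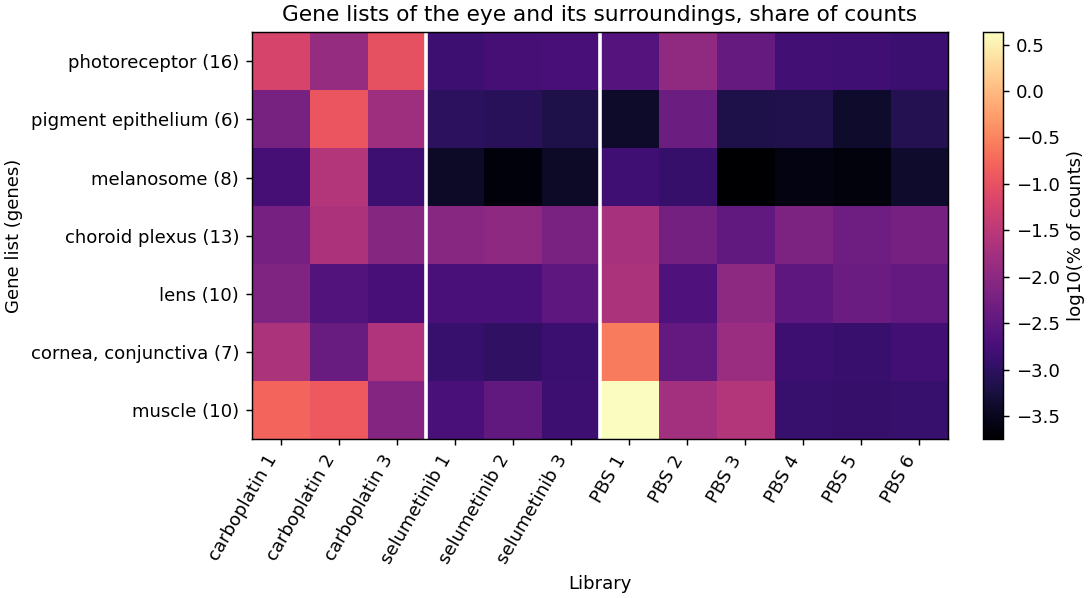
Share of counts, as log10 of percent by colour, of 7 gene lists (vertical axis, number of genes in brackets) in the 12 libraries (horizontal axis). Photoreceptor genes are high in carboplatin 1 and 3, pigment epithelium and melanosome genes in carboplatin 2, and muscle and cornea genes in PBS 1.

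Ttr is also a gene of the choroid plexus, and the choroid plexus list gave values in both directions. Of its 13 genes, 1 rose in carboplatin against PBS, Tmem72 (log2 fold change 4.86 ± 0.81 (SE), edgeR adjusted p = 0.014), and the median was 0.52. Slc4a5 was at 2.57, 84.1 and 13.8 CPM in carboplatin 1, 2 and 3, against 0 to 0.248 CPM in selumetinib and 0 to 4.06 CPM in PBS. Clic6 was at 7.04, 111 and 30.4 CPM in carboplatin 1, 2 and 3, against 1.67 to 33.2 CPM in selumetinib and 1.18 to 10.2 CPM in PBS, and both had carboplatin 2 as the highest carboplatin library. Folr1, a defining choroid plexus gene, was at 3.63, 0.326 and 3.74 CPM in carboplatin 1, 2 and 3, against 0.424 to 1.49 CPM in selumetinib and 0 to 13.6 CPM in PBS. Kl was at 21.4, 3.22 and 28.7 CPM in carboplatin 1, 2 and 3, against 11.2 to 40.4 CPM in selumetinib and 7.02 to 45.6 CPM in PBS, and both were lowest of the carboplatin libraries in carboplatin 2. Kcne2 was at 0.484, 0.489 and 0.501 CPM in carboplatin 1, 2 and 3, against 0 to 0.389 CPM in selumetinib and 0.0412 to 0.164 CPM in PBS. The summed share was 0.00585, 0.0225 and 0.00856% in carboplatin 1, 2 and 3, against 0.00625 to 0.0105% in selumetinib and 0.00354 to 0.0197% in PBS. PBS 1 held the top of the PBS range, and most of its counts there came from 1 gene of the list, Aqp1. Aqp1 had 4940 counts in PBS 1, against 24 to 46 in PBS 2 to 6.

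Of 29 tested genes of other retinal cells, 1 passed the test in carboplatin against PBS, beside 2.09% of all genes. Of 10 bipolar cell genes, 6 were tested and 0 passed the test in either direction, with a median log2 fold change of 0.29. Of 9 amacrine and horizontal cell genes, 0 passed, with a median of -1. Of 7 tested retinal ganglion cell genes 0 passed, with a median of 0.10, and of 7 Müller glia genes 1 rose, Rax. It was at 2.78, 5.096 and 4.34 CPM in carboplatin 1, 2 and 3, against 1.71 to 7.24 CPM in selumetinib and 0.558 to 1.64 CPM in PBS, with a log2 fold change of 2.02 ± 0.43 (SE) (edgeR adjusted p = 0.0383). Glul, glutamine synthetase, which astrocytes and oligodendrocytes also make, was at 3854, 2494 and 3834 CPM in carboplatin 1, 2 and 3, against 1276 to 1645 CPM in selumetinib and 1065 to 2138 CPM in PBS, with a log2 fold change of 0.94 ± 0.23 (SE) (edgeR adjusted p = 0.0663). Rlbp1, shared by Müller glia and pigment epithelium, was at 22.2, 242 and 56.01 CPM in carboplatin 1, 2 and 3, against 13.4 to 19.5 CPM in selumetinib and 10.6 to 31.8 CPM in PBS, with a log2 fold change of 2.36 ± 0.56 (SE) (edgeR adjusted p = 0.0566).

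Among the genes outside the 31 whose log2 CPM followed Rcvrn most closely over the 12 libraries were Tulp1 (Pearson r = 0.93), Per1 (0.91), Guca1b (0.91), Ddit4 (0.91), Ppm1d (0.90) and Zcchc2 (0.90). For Rpe65 they were Rgr (r = 0.99), Eef1a1 (0.97), Gm6472 (0.96), Slc9a3r1 (0.95), Med22 (0.95), Cdk5rap3 (0.94), Gm11696 (0.94) and Bcl7b (0.93). These values are a description over 15568 genes compared, in libraries that share groups and depth.

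Counts of calls moved with the libraries that were left in. Leaving out carboplatin 2 took the median log2 fold change of the 12 tested pigment genes to 2.79, with 0 passing the test, and that of the photoreceptor genes to 5.09. With carboplatin 2 as the only carboplatin library, the photoreceptor median was 1.03 and the pigment median 6.50. In that fit the lone library was assumed to vary like the other groups. Without PBS 2 the photoreceptor median was 6.72, and 17 genes passed in all. Without PBS 1, 19 genes passed. The count fell below the 8 of all libraries without any 1 of the other libraries but selumetinib 3: it was 4 without carboplatin 1, 3 without carboplatin 2 (Rom1, Guca1a and Slc24a1), 1 without carboplatin 3 (Mfrp), and 3 (Rom1, Slc24a1 and Mfrp) without any 1 of selumetinib 1 or 2 or PBS 3 to 6. Calls over all genes tested moved as well, and they too were fewest without carboplatin 3 and most without PBS 1. Over the fits that left out 1 library, Slc24a1 ranged over 5.35 to 7.14, Rom1 over 1.38 to 1.79, Ttr over 2.97 to 6.85 and Gnat1 over 4.11 to 6.9 on the log2 scale.

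**Figure D5:**
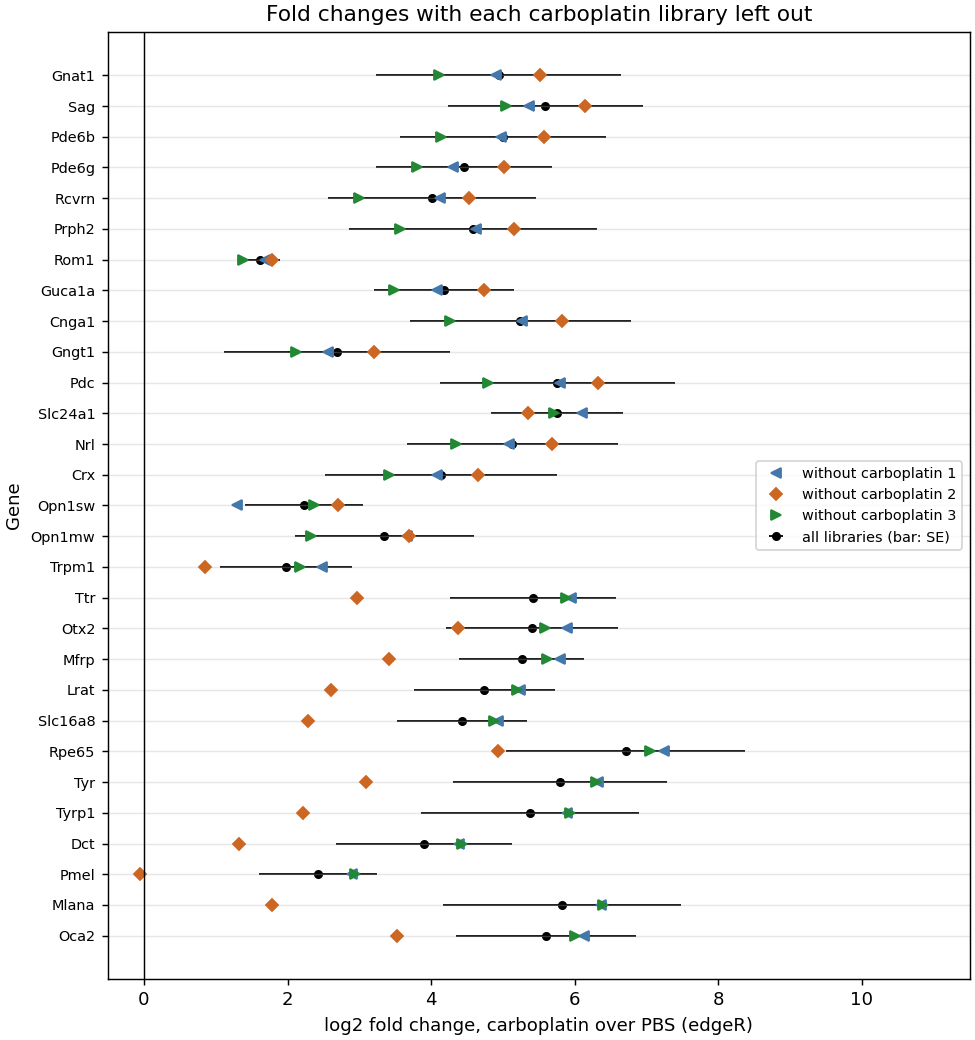
Log2 fold change of carboplatin over PBS for the 29 tested genes from all libraries (black, bar = SE) and with carboplatin 1, 2 or 3 left out (coloured symbols). Without carboplatin 2 the pigment epithelium and melanosome genes move left, with Ttr at 2.97 against 5.42 from all libraries, and the photoreceptor median moves to 5.09.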

How the data were processed

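The 12 libraries, made from poly(A) RNA of optic nerve, were grouped by the treatment in their labels. The authors deposited raw read counts per gene, and the submitters' processing notes list build mm10 and the tools STAR, HTSeq, Trimmomatic, FastQC and DESeq2. The sources used here give no versions, annotation release or strand setting. The 31 genes and the wider lists were chosen with earlier results of these data known, so that no test was made over a list. Counts of 35275 genes were filtered with filterByExpr (minimum count 10, minimum total 15, 18344 genes kept), scaled by TMM and fitted in 1 model of the 3 groups with edgeR 4.0.16 in R 4.3.3 (robust quasi-likelihood test, common dispersion 0.272), and p-values were adjusted over all genes kept. SE is the absolute log2 fold change over the square root of F. CPM use TMM-scaled totals, and RPKM use the exon union of each gene in GENCODE M21, in which 34490 of the IDs were found. Genes named outside the 31 were, for each list, the 4 with the highest mean CPM and the 4 with the smallest p in carboplatin against PBS, and the 8 most correlated with Rcvrn or Rpe65. Some genes of that rule are not reported here, and Grm6, Krt12, Folr1 and Kcne2 were named outside it after their values were seen. The test was first checked on simulated data with 100 genes raised 2-fold and 100 raised 4-fold in carboplatin. Against PBS it recovered 0 and 62 of these, with 4 false calls, so that changes of 2-fold can be missed. Every simulated gene had the common dispersion, and the spread of the 31 genes themselves was not simulated. No 2 libraries held identical counts. Promoter windows are RefSeq sequences of build GRCm38.p6, with bases inside annotated exons left out of what is printed. Alternatives were DESeq2 1.42.0, RLE size factors, no filter, the replicate number as a block, each library left out and subsets of libraries. Sums without Rom1 and Slc24a1 and bounds without 1 carboplatin library were added after seeing the data.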

Additional observations from a re-analysis of the deposited data

Results flagged for a closer look

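Among the 6 PBS libraries, the highest library stood apart from the others for 18 of the 31 genes and for 2 summed shares, by Dixon's test at the 95% level. For normally distributed values, chance alone gives such a result in about 1 of 20 groups tested. Many of these PBS values lie at or near 0 CPM, so that this rate need not hold here and the results are a description. These genes are also not independent of each other, since 17 of the 20 results are the same library.

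PBS 2 stood apart for the photoreceptor genes Gnat1 (31.6 CPM), Prph2 (11.6 CPM), Sag (5.36 CPM), Pde6b (5.32 CPM), Pde6g (4.86 CPM), Pdc (4.15 CPM), Nrl (3.56 CPM), Slc24a1 (3.52 CPM), Crx (3.35 CPM), Rcvrn (3.27 CPM), Cnga1 (1.17 CPM) and Opn1mw (0.502 CPM). It also stood apart for the pigment epithelium genes Ttr (24.3 CPM), Rpe65 (5.44 CPM) and Otx2 (1.47 CPM). The 16 photoreceptor genes took 0.0110% of counts in PBS 2 and the 6 pigment epithelium genes 0.00468%.

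PBS 1 stood apart for the rod gene Gngt1 (4.37 CPM) and for the melanosome genes Pmel (7.95 CPM) and Mlana (0.651 CPM). Skeletal muscle genes took 4.29% of counts in that library and cornea and conjunctiva genes 0.271%. The part of these in the 3 values was not tested.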

How the results depend on the processing

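From all libraries, carboplatin against PBS gave 383 genes and 8 of the 31 genes, selumetinib against PBS gave 0 and 0, and carboplatin against selumetinib gave 2568 and 17. With DESeq2 the counts over all genes were 1574, 2403 and 4715, in the same order of comparisons, and those of the 31 genes were 15 in carboplatin against PBS and 3 in selumetinib against PBS. Without a filter, 5 of the 31 genes (Rom1, Slc24a1, Mfrp, Lrat and Slc16a8) passed in carboplatin against PBS. In carboplatin against selumetinib 7 passed (Rom1, Guca1a, Slc24a1, Ttr, Mfrp, Slc16a8 and Gpr143), of which Gpr143 was not tested in the main fit. The counts over all genes without a filter are not given here, so these falls are not set against them. RLE size factors moved no call of a gene among the 31 in carboplatin against PBS.

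With the replicate block, carboplatin against PBS gave 5 genes and 0 of the 31, selumetinib against PBS 2 genes, and carboplatin against selumetinib 50 genes and 3 of the 31 (Rom1, Mfrp and Rpe65). The numbers are not known to pair the libraries: same-numbered libraries had deviations correlated by -0.125 to 0.379, and a library correlated best with its own number in 9 of 18 pairings.

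With PBS 1 to 3 as the only controls, the counts over all genes were 7, 3 and 97, and those of the 31 genes were 0 in carboplatin against PBS and 1, Rom1, in carboplatin against selumetinib. With PBS 4 to 6 as the only controls they were 2202 and 5641 genes for carboplatin against PBS and against selumetinib, and 23 of the 31 against PBS. Without carboplatin 1 and 3 together, 14 genes and 1 of the 31, Mfrp, passed against PBS, and 11 genes and 0 of the 31 against selumetinib (0 also in selumetinib against PBS by edgeR). Without PBS 1, selumetinib 1 and selumetinib 2 together, 3073 genes passed in carboplatin against PBS, and 516 genes and 0 of the 31 in carboplatin against selumetinib. That fit has 1 selumetinib library, assumed to vary like the other groups, as has the fit with 1 carboplatin library. Without PBS 2 and PBS 3 together, an alternative chosen after seeing the data, 169 genes passed against PBS and 1670 against selumetinib.

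Leaving out each library in turn, carboplatin against PBS gave 73 to 1941 genes, lowest without carboplatin 3 and highest without PBS 1, and 1 to 19 of the 31 genes. Selumetinib against PBS gave 0 to 4089 genes, highest without selumetinib 3, and 0 of the 31 each time. Carboplatin against selumetinib gave 134 to 5974 genes, lowest without selumetinib 1 and highest without PBS 1, and 1 to 25 of the 31. In carboplatin against PBS, the log2 fold change of 2 genes changed sign: Pmel was -0.05 without carboplatin 2 (edgeR adjusted p = 0.984) and ranged over -0.05 to 3.01 with each library left out in turn, and Prph2 was -0.45 without carboplatin 1 and 3 together (edgeR adjusted p = 0.978). In selumetinib against PBS, the median of the photoreceptor genes was -2.85 from all libraries, 1.04 with PBS 4 to 6 as the only controls and 0.22 without PBS 2 and PBS 3 together, and that of the pigment genes was -1.1, 0.43 and -0.44. Causes were not tested.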
